A study of Mus musculus with 2 samples.

Results

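The cells described here are the monocytes among the myeloid cells that were sorted from mouse retina and sequenced cell by cell. A cell was taken as a monocyte when at most 20% of its UMIs were mitochondrial, when it held at least 1 UMI (a unique molecular identifier, which marks 1 captured RNA molecule) of at least 3 of 8 genes (Plac8, Napsa, S100a4, Ifitm6, Hp, Gda, Itgal and Ace), and when it held fewer than 3 of 6 genes of border and perivascular macrophages (Mrc1, Pf4, Lyve1, Ms4a7, Cd163 and F13a1). The members were thus chosen by the UMI counts of these genes and the mitochondrial share, and their levels of these genes describe the choice. This gave 54 monocytes from room air (RA) retinas and 90 from retinas with oxygen-induced retinopathy (OIR), 144 of the 2708 cells in both libraries. Both groups were C57BL/6j mice taken at postnatal day 17. The OIR pups had breathed raised oxygen in the second week of life, which obliterates retinal vessels. They then returned to room air, where pathological vessel tufts form. The RA pups had stayed in room air throughout. Retinas were dissociated, CD11b+F4/80+ cells were sorted, and each condition gave 1 droplet library, so no value below has a replicate and no test between conditions could be made. Each library pooled several retinas, and the number of animals behind them was not given in the sources used here.

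The RA library held 1449 cells and 12810892 UMIs, and the OIR library held 1259 cells and 9835402 UMIs. No cell barcode was shared (0). The mitochondrial limit left 1324 RA cells and 1204 OIR cells, and none (0) of the cells it removed held 3 of the 8 genes. Monocytes made up 4.08% of the kept RA cells (3.08 to 5.29%, exact 95% binomial interval) and 7.48% of the kept OIR cells (6.05 to 9.11%). Among cells with a UMI of Ptprc, which encodes the leukocyte antigen CD45, the shares were 6.04% (4.57 to 7.81%) and 13.7% (11.1 to 16.6%). The intervals of the 2 libraries did not overlap on either denominator for this set of cells. They did overlap for the monocytes without microglial transcripts, a subset described below, at 2.79% (1.98 to 3.83%) and 4.15% (3.098 to 5.44%) of kept cells. With cells that held genes of other blood cells left out too, the shares were 2.04% (1.35 to 2.95%) and 3.82% (2.81 to 5.06%). All intervals here cover counting error within a library and not the difference between animals. How many other cells came through the sort also sets such a share.

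The monocytes were sequenced to a median of 11366 UMIs per cell in RA (range 2278 to 75868) and 9022 in OIR (634 to 39063). Their UMIs summed to 864075 and 1016526. Levels are given as CPM, the UMIs of a gene summed over a group of cells and scaled to a total of 1000000 UMIs for that group. A deep cell therefore weighs more than a shallow one. Intervals of levels and of their ratios take each UMI as an independent draw and leave out the spread between cells. Each captured molecule gives 1 UMI at the 3′ end of the transcript, so that CPM values were not divided by length.

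Monocytes are made in the bone marrow, circulate in the blood and enter inflamed tissue, where they can become macrophages. Classical monocytes of the mouse carry Ly6C and the chemokine receptor CCR2, which draws them along CCL2. Non-classical monocytes depend on the nuclear receptor NR4A1, express more CX3CR1 and less CCR2, and patrol the vessel wall. Microglia, the resident macrophages of the retina, come from the yolk sac and express P2ry12, Tmem119 and Sall1, genes that blood monocytes lack. Monocyte-derived cells have long been studied around the new vessels of ischaemic retinopathy.

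Ptprc and the genes of the sort were looked up in the monocytes and in rods. Macrophages and microglia came through the same sort, so this cannot tell a monocyte from them. A Ptprc UMI was found in 100% of RA and 97.8% of OIR monocytes, against 1.06% and 0.457% of the rod photoreceptors in the same libraries, which should lack it and were shallower, with medians of 1802 and 1211 UMIs. Itgam, which encodes CD11b, was found in 92.6% and 84.4% of monocytes (0.709% and 0.457% of rods). Adgre1, which encodes F4/80, was found in 70.4% and 75.6% (0.457% of OIR rods, and 0 of 282 RA rods, which allows up to 1.30%). The markers of the sort were thus present in most of these cells and in few rods, and what set the level in rods was not tested.

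The 8 genes that chose the cells gave the following values, which describe the choice and test nothing. Plac8, a cysteine-rich protein abundant in myeloid and lymphoid cells, led with 2035 CPM in RA and 1208 CPM in OIR, found in 52 of 54 and 86 of 90 cells. Napsa, an aspartic protease, stood at 616 and 606 CPM, and the calcium-binding S100a4 at 836 and 202 CPM. Ifitm6, of the interferon-induced transmembrane family, stood at 487 and 326 CPM, Hp (haptoglobin) at 228 and 309.9 CPM, and Gda (guanine deaminase) at 212 and 189 CPM. Itgal, the alpha chain of the integrin LFA-1, had 479 and 321 CPM, and Ace, the angiotensin-converting enzyme, 304 and 149 CPM. S100a4 and Ace lay furthest apart between the libraries.

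Most members held nearly all of the 8 genes: 37 RA and 46 OIR cells held 7 or 8 of them, and 5 and 22 held 3 or 4. Just inside the threshold, the 3 RA and 11 OIR cells with exactly 3 genes carried a median of 17 and 10 UMIs of the 8 genes. Just outside it, 7 RA and 3 OIR cells with 2 genes carried a median of 8 and 8. Cells just inside and just outside the threshold numbered 14 and 10 in both libraries together. Of the genes that kept macrophages out, none (0) was found in 37 RA and 58 OIR monocytes, and F13a1, a clotting factor subunit that classical monocytes also express, was the most abundant of them at 55.6 and 48.2 CPM.

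The monocytes fell into cells with and without microglial transcripts. Of 9 microglial genes (P2ry12, P2ry13, Tmem119, Siglech, Sall1, Sparc, Gpr34, Olfml3 and Fcrls), at least 3 were found in 31.5% of RA monocytes (17 cells, 19.5 to 45.6%) and 44.4% of OIR monocytes (40 cells, 34.0 to 55.3%). After each cell was thinned to 3000 UMIs the shares were 31.4% and 40.5%. In these cells the 9 genes made up a median of 0.611% of all UMIs in RA and 0.476% in OIR, beside 0.888% and 0.842% in the microglia of the same libraries. In the other monocytes the median was 0% in both libraries, and the highest value was 0.0398% and 0.0857%. Gene by gene, cells with microglial genes carried the 9 at a median of 63.2% of the microglial level in RA (58.8 to 101%) and 57.9% in OIR (51.9 to 74.1%), and the others at 0% (up to 1.02%) and 0.368% (up to 8.79%). Most of the 9 genes thus came at a like share of the microglial level within a library.

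Cells that held microglial genes were deeper. Their median depth was 22735 UMIs in RA and 15452 in OIR, against 7809 and 5263 for the others. The 8 genes of the rule gave a median of 26.4 UMIs per 10000 in RA and 18.4 in OIR, against 85.8 and 70.8. What lowered this share was not tested. The number of the 8 genes found was alike, with medians of 7 and 7 against 7 and 6.50, as a description of cells chosen by these genes. UMIs of Xist, which is transcribed in female cells, and of Y-linked genes were found together in 26 of 57 cells with microglial genes and in 3 of the 87 others. Among microglia this was the case in 16 of 801 (RA) and 7 of 635 (OIR) barcodes, and among macrophages in 16 of 97 and 15 of 159. Whether such a barcode held 1 cell or more was not tested by a doublet caller, and for these 57 cells the name monocyte rests on the rule alone. Values below are for all monocytes unless stated, and ratios that moved most with these cells are given again without them, a split chosen after the data were seen. A further 1 RA and 3 OIR monocytes held exactly 2 of the 9 genes, and ratios that turned on these 4 cells are given without them too.

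**Figure D1:**
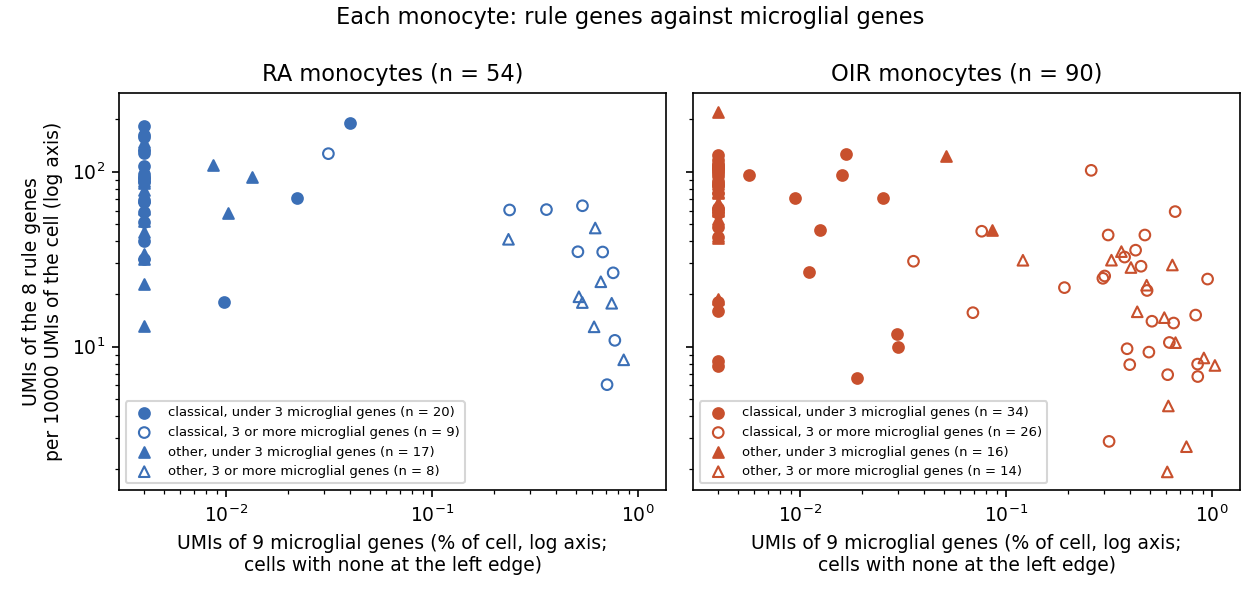
Each point is 1 monocyte, with UMIs of the 8 rule genes per 10000 UMIs against the percent of its UMIs from the 9 microglial genes, in RA (left) and OIR (right). Circles are classical and triangles other monocytes. Open symbols hold at least 3 microglial genes (17 in RA, 40 in OIR). By their medians they lie to the lower right of the filled ones, but the groups overlap on both axes. The lowest microglial percent among open symbols was 0.0314 in RA and 0.0355 in OIR, and the highest among filled ones 0.0398 and 0.0857. Rule UMIs per 10000 reached 126.8 and 101.8 in open symbols and fell to 13.2 and 6.61 in filled ones. Cells with no microglial UMI are drawn at the left edge.

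Some members held genes of other blood cells. At least 3 genes of a neutrophil list were found in 5 RA and 2 OIR cells, of a dendritic cell list in 4 and 4, of a B cell list in 3 and 0, and of a natural killer and T cell list in 0 and 1. All 6 basophil and mast cell genes were at 0. The 10 neutrophil genes summed to 2771 CPM in RA and 276 CPM in OIR, with S100a8 (1542 CPM) the most abundant in RA and S100a9 (137 CPM) in OIR. Retnlg had 35 and 22 UMIs, Lcn2 37 and 0, Il1r2 37 and 21 and Cxcr2 20 and 7, while 3 of the 10 were at 0 in each library, Camp and Ngp in both. Together 12 RA and 7 OIR monocytes held 3 genes of any of these lists. At least 3 of 8 further genes listed for border and perivascular macrophages, which the rule did not use (Cbr2, Stab1, Folr2, Gas6, Cd209f, Ccl8, Clec4n and Cd36), were found in 13 RA and 25 OIR monocytes. Cd36 is also on the list of non-classical monocyte genes used below. In monocytes without microglial genes and without a UMI of Ccr2 or Ly6c2 it stood at 318 CPM (RA) and 300 CPM (OIR). How many cells were counted through Cd36 was not tested.

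Against the macrophages and microglia of the same libraries the monocytes stood apart well beyond the genes that chose them. Macrophages were the 97 RA and 159 OIR cells with at least 3 of the 6 macrophage genes and fewer than 3 monocyte genes. Microglia were those that met neither rule and held at least 3 of the 9 microglial genes, and rods those that met none of these and had at least 5% of their UMIs in 8 rod genes. Of 1493 genes with at least 100 CPM in 1 of the groups compared and at least 10 UMIs in both together, 144 (9.65%), genes of the rule included, were over 2-fold higher in monocytes than in both other cell types in both libraries. Without the monocytes that held microglial genes, described above, 262 of 1594 (16.4%) were. Outside the rule, over all monocytes, the 10 furthest apart by their smallest ratio were S100a6, Ear2, Sirpb1c, S100a9, Adgre4, Ltb4r1, G0s2, Pglyrp1, Spn and Itgb7. Of these, S100a9 was found in 6 RA cells and in 1 OIR cell. S100a6, a calcium-binding protein, stood at 1288 CPM in RA and 315 CPM in OIR monocytes, beside 2.03 and 2.79 CPM in macrophages. Ear2, an eosinophil-associated ribonuclease, stood at 238 and 143 CPM, and Ltb4r1, the receptor for the chemoattractant leukotriene B4, at 178 and 222 CPM. Macrophages held no (0) UMI of Ear2, which allows up to 2.03 CPM in RA and 1.40 CPM in OIR, and 0 and 1.86 CPM of Ltb4r1, so that these transcripts were almost confined to the monocytes among the 3 myeloid cell types compared. Adgre4, an adhesion receptor related to F4/80, stood at 181 and 171 CPM, Sirpb1c, a signal-regulatory receptor, at 170.1 and 184 CPM, and G0s2, an inhibitor of fat breakdown, at 168 and 128 CPM. These 3 levels were alike in both libraries, while that of S100a6 was not.

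Genes for adhesion and migration stood above the level of the macrophages. Among the monocytes without microglial genes, 11 of 17 trafficking genes in RA and 10 of 16 in OIR were over 2-fold above the macrophages, with a median log2 ratio of 2.37 and 2.11, where 15.1% and 12.7% of all genes with at least 10 UMIs were 2-fold higher. Itga4, the alpha chain of the integrin VLA-4 that binds VCAM1 on endothelium, stood at 499 CPM in RA and 362 CPM in OIR monocytes, at 32.4 and 40.0 CPM in macrophages and at 1.20 and 4.64 CPM in microglia. Itgb7, which pairs with it, stood at 131 and 125 CPM, with 0 UMIs in macrophages of either library. Cd44, the hyaluronan receptor, stood at 477 and 432 CPM (macrophages 63.5 and 88.5), and the chemokine receptor Cxcr4 at 216 and 226 CPM (macrophages 29.7 and 60.5). Each of these 4 genes was higher in monocytes than in macrophages in both libraries. Cytokine genes lay the other way, with median log2 ratios of -2.36 in RA and -2.42 in OIR over the list (-3.43 and -2.23 without the cells with 2 microglial genes), and so did genes of tissue macrophages, at -3.80 and -2.28.

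Classical monocytes, those with at least 1 UMI of Ccr2 or Ly6c2, numbered 29 of 54 in RA (53.7%, 39.6 to 67.4%) and 60 of 90 in OIR (66.7%, 55.9 to 76.3%). The 2 intervals overlapped. Ccr2 was found in 25 RA and 56 OIR cells and stood at 191 CPM in RA and 352 CPM in OIR over all monocytes. Ly6c2 was found in 16 and 24 cells and stood at 219 and 85.6 CPM. Over all monocytes the OIR over RA log2 ratios of these genes were 0.88 (0.61 to 1.16) and -1.35 (-1.74 to -0.98). In monocytes without microglial genes Ccr2 stood at 321 and 607 CPM (log2 ratio 0.92, 0.58 to 1.26) and Ly6c2 at 404 and 214 CPM (log2 ratio -0.91, -1.35 to -0.49), and 1 RA cell held 36.3% of those RA UMIs of Ly6c2. Ly6c2 was then found in 12 of 37 RA and 18 of 50 OIR cells, so that its lower OIR level did not come with a lower share of cells. Among macrophages a Ccr2 UMI was found in 2 of 97 RA and 5 of 159 OIR cells, and among microglia in 4 of 801 and 1 of 635, far below the share in monocytes.

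A split on 1 UMI depends on depth. Classical cells had a median of 15944 UMIs in RA and 9948 in OIR, and the other monocytes 8513 and 6639. When all cells were reduced at random to 3000 UMIs each (3 RA and 6 OIR cells had fewer and were dropped), the classical share was 35.3% (22.4 to 49.9%) in RA (18 of 51) and 51.2% (40.0 to 62.3%) in OIR (43 of 84). Ccr2 was then found in 25.5% and 45.2% of monocytes and Ly6c2 in 21.6% and 17.9%, against 1.15% and 1.6% of macrophages for Ccr2. In monocytes without microglial genes the thinned shares for Ly6c2 were 23.5% and 31.8%. The OIR classical share was above the RA one at equal depth too, but the intervals overlapped. The unthinned classical shares without the cells that held microglial genes were 54.1% and 68%.

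Few genes that neither rule used were over 2-fold apart between classical and other monocytes in both libraries. Of 1575 genes compared in both libraries, 8 (0.508%) were over 2-fold higher in classical cells in both and 3 (0.19%) were over 2-fold lower in both. In RA and OIR alone, 7.53% and 7.15% of genes with at least 10 UMIs were over 2-fold higher, and 6.65% and 6.31% lower. Whether the libraries shared more calls than unrelated ones would was not tested. Fn1, which encodes fibronectin, led the 8 higher genes, with 294 CPM in classical and 9.29 CPM in other RA monocytes, and 501 and 38.0 CPM in OIR. Its log2 ratios were 4.98 (3.41 to 7.28) and 3.72 (2.86 to 4.73). Fn1 UMIs were found in 15 of 29 classical and 3 of 25 other cells in RA, and in 38 of 60 and 6 of 30 in OIR. The other 7 were Cfp (properdin, of the alternative complement pathway), S100a10, Vim (the filament protein vimentin), Ms4a6b, C3 (the central complement component), Emb and Thbs1 (thrombospondin 1, an inhibitor of vessel growth). Thbs1 stood at 623 CPM in classical and 303 CPM in other RA monocytes, and at 1181 and 335 CPM in OIR. C3 stood at 131 and 61.9 CPM in RA and at 127 and 38.0 CPM in OIR. The next genes in that order, Nfil3 (log2 1.35 and 0.99) and Hp (0.97 and 1.77), a gene of the first rule, were over 2-fold higher in 1 library alone. The calls depended on the cells that held microglial genes: without them 16 of 1618 genes (0.989%) were over 2-fold higher in both libraries, 3 of them shared with the 8 (Emb, C3 and Ms4a6b). Vim was then at 0.96 (0.71 to 1.22) in RA and 1.35 (0.97 to 1.74) in OIR, and Thbs1 at 0.73 (0.35 to 1.12) and 1.64 (1.19 to 2.12). Cfp and S100a10 lay just under 2-fold in OIR, at 0.99 and 0.98, and Fn1 at 4.56 (2.99 to 6.86) in RA, with 2 UMIs left in the other OIR cells.

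The 3 genes lower in classical cells in both libraries were Cd300e, an activating receptor of non-classical monocytes, Dusp6, a phosphatase of ERK kinases, and Eno3, an enolase. Cd300e stood at 20.3 CPM in classical and 136 CPM in other RA monocytes, and at 17.9 and 114 CPM in OIR, with log2 ratios of -2.74 (-3.85 to -1.77) and -2.67 (-3.72 to -1.71). Eno3 gave -1.40 (-1.91 to -0.90) and -1.02 (-1.45 to -0.59). Next after them, Cd300ld, Hes1, Cd34, Slc7a11, Rasgrp2, Tgm2 and Rbpms, were lower in both libraries, by less than 2-fold in at least 1. In monocytes without microglial genes 24 of 1618 genes (1.48%) were over 2-fold lower in both, among them Cd300e, at -2.51 (-4.13 to -1.13) and -3.55 (-5.17 to -2.15), and Dusp6. Eno3 was then at -2.02 (-2.67 to -1.40) and -0.98 (-1.63 to -0.31).

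The lists of subset genes lay on opposite sides. Of further classical genes, 5 of 8 in RA and 4 of 9 in OIR were over 2-fold higher in classical cells, with medians of 1.09 and 0.82 (log2), where 7.53% and 7.15% of all genes with 10 UMIs were higher. Of 14 further non-classical genes, 4 in RA and 2 in OIR were over 2-fold lower, with medians of -0.59 and -0.44 against 6.65% and 6.31% of all genes lower. Spn (CD43) gave -1.41 (-1.92 to -0.91) and -0.29 (-0.89 to 0.34), and the receptor gene Treml4 -1.11 (-1.62 to -0.60) and -0.51 (-0.99 to -0.02). Nr4a1 itself stood at 0.24 (0.04 to 0.44) and 0.11 (-0.14 to 0.37), on the other side of 0 from its list. Once the cells with microglial genes were left out, the non-classical medians were -0.82 and -0.53, Spn stood at -1.82 and -0.46, Treml4 at -1.59 and -0.55, and Nr4a1 at -0.03 (-0.30 to 0.24) and -0.51 (-0.91 to -0.10). Non-classical genes were common on both sides of the split: classical cells held a median of 11 of the 14 in RA and 8 in OIR, and the other cells 12 and 10.

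**Figure D2:**
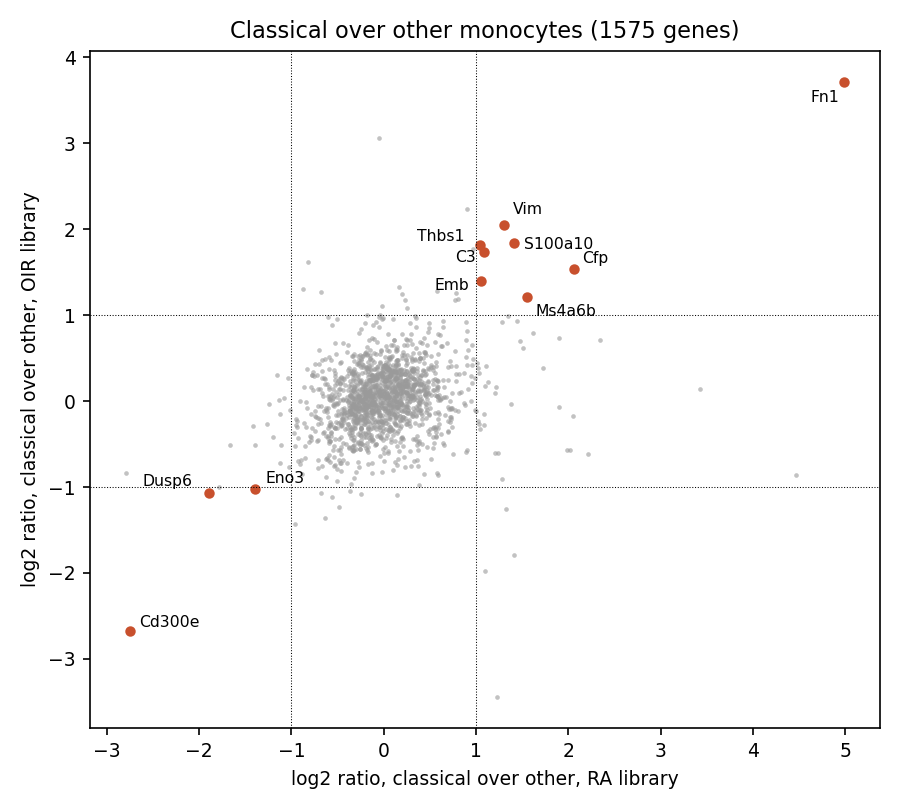
Each point is 1 of 1575 genes, with the log2 ratio of classical over other monocytes in RA on the horizontal axis and in OIR on the vertical axis. The 11 labelled genes are over 2-fold apart in the same direction in both libraries, with Fn1 (4.98 and 3.72) far to the upper right and Cd300e (-2.74 and -2.67) to the lower left.

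MHC class II genes, which present antigen, and interferon-stimulated genes gave different counts in the 2 libraries, the former through few cells. All 7 MHC class II genes were over 2-fold higher in classical RA monocytes (median 2.02), and 0 were in OIR (median -0.57), beside 7.53% and 7.15% of all genes. H2-Aa, the alpha chain of I-A, stood at 1791 CPM in classical and 452 CPM in other cells in RA, and at 678 and 1005 CPM in OIR. Yet 10 RA and 9 OIR cells, those with at least 50 UMIs of the 7 genes, held 95.2% and 90.2% of these UMIs. Few UMIs of these genes lay outside those cells. Of the cells with 50 UMIs, 5 and 2 also held 3 genes of another blood cell list. Without every cell that held 3 genes of another blood cell list or of the microglial list, the RA median was -2.29 and so reversed. Of the interferon-stimulated genes, 5 of 11 were over 2-fold higher in classical cells in RA and 7 of 12 over 2-fold lower in OIR, beside 7.53% of all genes higher in RA and 6.31% lower in OIR. These counts were, without the cells that held microglial genes, 1 of 10 and 5 of 10, beside 12.3% and 9.18% of all genes in that subset. Isg15, a ubiquitin-like interferon target, was found in 20 RA and 25 OIR monocytes, and 1 OIR cell held 49.0% of its OIR UMIs.

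In OIR against RA monocytes, 88 of 1918 genes (4.59%) with at least 100 CPM in 1 library and at least 3 UMIs in each were over 2-fold higher and 172 (8.97%) over 2-fold lower, and the median gene differed by 0.10 (log2). The balance turned with the gene limit, since of 9054 genes with at least 10 UMIs in both libraries together 852 (9.41%) were higher and 635 (7.01%) lower. Without the cells that held microglial genes, 121 of 1956 (6.19%) were higher and 196 (10%) lower, with a median of 0.19. All ratios that follow are OIR over RA, between 1 library and 1 library. The monocytes of the 2 libraries also differed in UMIs of sex-linked genes. Xist without Y-linked UMIs was found in 46.3% of RA (32.6 to 60.4%) and 10% of OIR monocytes (4.68 to 18.1%). Y-linked UMIs without Xist were found in 33.3% (21.1 to 47.5%) and 53.3% (42.5 to 63.9%). In microglia these shares were 33.1% and 22.5% for Xist and 50.4% and 43.1% for Y-linked UMIs. Neither was found in 116 of 801 RA and 211 of 635 OIR microglia. Among monocytes, 2 RA and 13 OIR cells held neither, and 9 RA and 20 OIR cells held both, so these were not assigned a sex. The part of sex in the ratios was not tested.

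Lyz2, which encodes lysozyme M, differed most. In RA, 16 UMIs were found, 18.5 CPM, in 9 of 54 monocytes, and no cell held over 5. In OIR, 5043 UMIs were found, 4961 CPM, in 84 of 90 monocytes, with a median of 44 and a highest value of 260 UMIs per cell. The log2 ratio was 8.07 (7.36 to 8.87), and without the cells that held microglial genes it was 8.10 (7.29 to 9.05). The same step was seen in macrophages, with 18.9 CPM in RA and 2165 CPM in OIR, and in microglia, where 2 of 801 RA and 461 of 635 OIR cells held a UMI. Rods, which should lack it, held one in 3 of 219 OIR cells. Near-zero Lyz2 in RA thus held for all 3 myeloid cell types, although lysozyme M is a standard transcript of mouse monocytes. Lyz2 is also the locus that carries Cre in Lysm-Cre mice, a strain the study kept for other experiments. Whether animals of either library carried such an allele is not stated in the labels and was not tested.

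Lyz2 has a close copy, Lyz1, beside it on chromosome 10. On GRCm38.p6 (the RefSeq annotation of the mm10 build), Lyz2 lies at chr10:117277541-117282272 and Lyz1 at chr10:117287795-117292868, both on the minus strand. Lyz1 UMIs were found in 8 RA monocytes (up to 57 per cell) and 14 OIR monocytes (up to 104), and in 18 RA and 6 OIR microglia. Lyz1 thus showed no such step between the libraries, but reads could be split between the copies in counting, so both levels are uncertain. The 250 bases before the start of each gene are shown because they let a reader see how close the copies are. They are given 5′ to 3′ on the minus strand, and capitals mark bases that differ or have no partner in a global alignment, in which 207 of 259 columns (79.9%) were identical.
Lyz2, chr10:117282273-117282522: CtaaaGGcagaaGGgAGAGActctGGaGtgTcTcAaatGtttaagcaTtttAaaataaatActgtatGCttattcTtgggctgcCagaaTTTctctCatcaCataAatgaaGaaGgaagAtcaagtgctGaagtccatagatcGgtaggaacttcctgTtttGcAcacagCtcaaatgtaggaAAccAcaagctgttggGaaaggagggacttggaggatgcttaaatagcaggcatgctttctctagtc
Lyz1, chr10:117292869-117293118: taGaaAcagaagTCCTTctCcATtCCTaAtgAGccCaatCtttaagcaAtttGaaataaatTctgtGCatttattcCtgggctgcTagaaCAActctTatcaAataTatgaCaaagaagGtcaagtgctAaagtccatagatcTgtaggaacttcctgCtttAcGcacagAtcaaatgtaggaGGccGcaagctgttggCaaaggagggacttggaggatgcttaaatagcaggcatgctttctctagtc

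**Figure D3:**
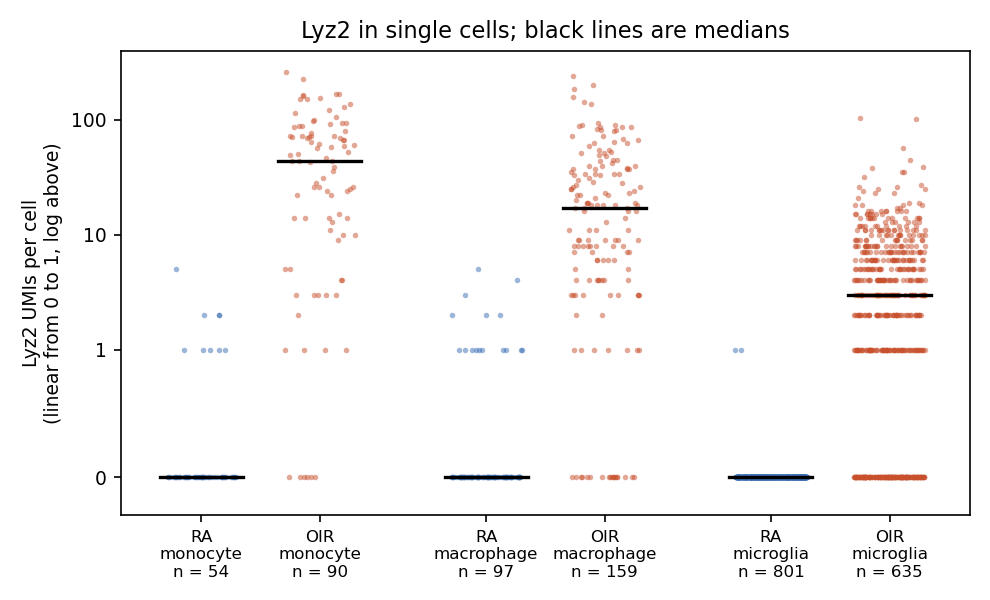
Lyz2 UMIs per cell (each point 1 cell, bars the medians) for monocytes, macrophages and microglia in RA and OIR. RA medians are at 0, while OIR medians are 44 UMIs in monocytes, 17 in macrophages and 3 in microglia.

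Glycolytic genes were mostly higher in OIR. Of 14 genes of glucose uptake and glycolysis, 10 were over 2-fold higher and 1 over 2-fold lower in all monocytes, where 9.41% and 7.01% of all genes with at least 10 UMIs were, and their median log2 ratio was 1.28. Pgk1, which makes the first ATP of the pathway, stood at 141 (117 to 169) CPM in RA and 479 (437 to 524) CPM in OIR (95% Poisson intervals), in 43 of 54 and 82 of 90 cells, a log2 ratio of 1.76 (1.47 to 2.06). Pgam1, the phosphoglycerate mutase, stood at 146 and 449 CPM (log2 ratio 1.62, 1.33 to 1.92), and Gapdh at 946 and 2538 CPM (log2 ratio 1.42, 1.31 to 1.54). These 3 genes were higher in OIR beyond counting error. Ldha, which makes lactate from pyruvate, stood at 249 and 629.6 CPM (log2 ratio 1.34, 1.11 to 1.57), Pkm (pyruvate kinase) at 420.1 and 1006 CPM (log2 ratio 1.26, 1.09 to 1.44), and Slc2a1, the glucose transporter GLUT1, at 35.9 and 78.7 CPM (log2 ratio 1.13, 0.52 to 1.78). Aldoa, Tpi1, Eno1 and Pfkl made up the 10, with log2 ratios of 1.15, 1.31, 1.31 and 1.35. Hk2, a hexokinase at the entry of the pathway, went the other way, from 186 CPM in RA to 63.0 CPM in OIR (log2 ratio -1.57, -2.01 to -1.14). Gpi1 (0.73), Hk1 (0.24) and Pfkp (-0.25) lay within 2-fold.

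Part of these ratios moved with the cells that held microglial genes. Without those cells 7 of 14 glycolytic genes were over 2-fold higher and 1 lower, where 11.3% and 9.37% of all genes were, and the median was 0.99. With the cells that held 2 microglial genes left out as well, 5 were higher and 1 lower (median 0.91), beside 11.3% and 9.43%. Pgk1 was then at 1.44 (1.02 to 1.87), Gapdh at 1.15 (0.97 to 1.33) and Eno1 at 1.30 (0.96 to 1.66), while Pkm was at 0.61 (0.34 to 0.89). Hk2 kept its direction, at -1.66 (-2.72 to -0.71). In macrophages the median of the list was 1.19 and Hk2 stood at -1.37 (-1.67 to -1.08). In microglia the median was 1.46 and Hk2 stood at -1.15 (-1.29 to -1.02). In rods, which are not myeloid, the median was 0.82, Hk2 stood at -0.65 (-1.07 to -0.25), and the other 13 genes had intervals above 0. The pattern of the monocytes, most enzymes higher and Hk2 lower, was thus shared by the macrophages, microglia and rods of these libraries.

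Promoters of glycolytic genes were searched for ACGTG, the core that HIF binds in hypoxia response elements, on both strands of the 250 bases before each RefSeq gene start (GRCm38.p6). All 14 genes were matched, and 7 of them (50%) held the letters in at least 1 window: Slc2a1, Hk2, Aldoa, Pgk1, Pgam1, Pkm and Ldha. Among 27025 genes with such windows the share was 18.5%, and windows rather than genes gave 8 of 21 (38.1%) against 16.6% of 32851. Since genes with more windows have more chances, both are given. Hk1, Gpi1, Pfkl, Pfkp, Tpi1, Gapdh and Eno1 had no match in these windows. A match describes the sequence and shows no binding. The windows of 3 genes that were higher and of Hk2, which was lower, are shown because genes with matches lay on both sides. Capitals mark ACGTG or its reverse complement CACGT, which together read CACGTG where they overlap, and each is written on the strand of its gene.
Pgk1, chrX:106186850-106187099, plus strand: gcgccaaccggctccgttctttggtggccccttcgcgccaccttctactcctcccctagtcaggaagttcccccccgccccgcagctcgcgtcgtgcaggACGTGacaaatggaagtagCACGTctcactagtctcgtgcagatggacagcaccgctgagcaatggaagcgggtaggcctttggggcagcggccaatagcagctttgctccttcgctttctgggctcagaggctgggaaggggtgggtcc
Pgam1, chr19:41911621-41911870, plus strand: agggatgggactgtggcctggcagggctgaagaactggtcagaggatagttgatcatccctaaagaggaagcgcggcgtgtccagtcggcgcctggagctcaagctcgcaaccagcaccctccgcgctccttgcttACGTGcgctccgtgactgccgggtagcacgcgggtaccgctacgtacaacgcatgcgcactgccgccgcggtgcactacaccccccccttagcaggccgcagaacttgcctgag
Ldha, chr7:46845554-46845803, plus strand: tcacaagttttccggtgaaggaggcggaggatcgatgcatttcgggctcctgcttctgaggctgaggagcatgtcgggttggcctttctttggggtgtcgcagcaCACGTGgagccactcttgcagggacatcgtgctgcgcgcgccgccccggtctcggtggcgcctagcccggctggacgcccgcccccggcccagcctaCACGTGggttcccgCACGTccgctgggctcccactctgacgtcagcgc
Hk2, chr6:82774455-82774704, minus strand: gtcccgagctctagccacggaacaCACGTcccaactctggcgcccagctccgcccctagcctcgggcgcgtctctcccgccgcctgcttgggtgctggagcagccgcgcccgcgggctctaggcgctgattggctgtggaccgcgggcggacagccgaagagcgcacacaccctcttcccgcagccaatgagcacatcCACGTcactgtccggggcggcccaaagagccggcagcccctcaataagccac

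Hypoxia-induced genes outside glycolysis were low in these cells. Of 11 compared, 5 were over 2-fold higher in OIR (median 0.72), beside 9.41% of all genes, and 3 of 8 were without the cells that held microglial genes (median 0.15), beside 11.3%. Vegfa, the main growth factor of pathological vessels, was found in 4 RA and 24 OIR monocytes, at 10.4 and 59.0 CPM (log2 ratio 2.50, 1.48 to 3.70). Rods of the same libraries had 8.69 and 22.6 CPM (log2 ratio 1.38, 0.10 to 2.71), so that the RA level in monocytes was about that in rods. Without the cells that held microglial genes its ratio was 1.65 (0.24 to 3.28). With the cells that held 2 microglial genes left out as well it was 1.37 (-0.13 to 3.05), an interval that includes no difference. Bnip3, a mitochondrial protein of hypoxic cells, stood at 23.1 and 58.0 CPM in all monocytes and at 24.9 and 15.3 CPM without the cells that held 3 microglial genes.

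Of other genes of vessel growth, 5 of 12 were over 2-fold higher and 1 lower in all monocytes (median 0.72), beside 9.41% and 7.01% of all genes. In monocytes without microglial genes 5 were higher and 1 lower of 9, beside 11.3% and 9.37%. With the cells that held 2 of them left out as well, 1 was higher and 1 lower of 6, beside 11.3% and 9.43%. Thbs1 was the most abundant of the list, at 503 CPM in RA and 940.5 CPM in OIR (log2 ratio 0.90, 0.74 to 1.07). Plaur, the urokinase receptor, stood at 396 and 578 CPM (log2 ratio 0.55, 0.35 to 0.74), and Tgfb1 at 415 and 549 CPM (log2 ratio 0.40, 0.21 to 0.60). These abundant genes lay within 2-fold, and without the cells that held microglial genes Thbs1 was at 1.02 (0.82 to 1.23). Igf1, a growth factor of retinal microglia, stood at 11.6 and 94.4 CPM over all monocytes, and no (0) UMI was found without the cells that held microglial genes, which allows up to 8.31 CPM in RA and 9.19 CPM in OIR. Spp1 (osteopontin) gave 1 UMI in RA and 311 in OIR, in 22 cells (log2 ratio 8.05, 5.56 to 13.35), and 23 UMIs in the 5 OIR cells that held it among those without microglial genes, of which 1 cell held 82.6%. Igf1 and Spp1 were thus found mostly in monocytes that also held microglial genes.

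Genes of tissue macrophages had the highest median of the 13 lists compared in monocytes without microglial genes. In all monocytes 7 of 17 were over 2-fold higher in OIR and 0 lower (median 0.89), beside 9.41% and 7.01% of all genes. Once cells with microglial genes were left out, 10 of 15 were higher and 0 lower (median 1.61), beside 11.3% and 9.37%. The median was 0.43 in macrophages and 0.79 in microglia. The OIR monocytes without microglial genes were shallower than the RA ones (median 5263 against 7809 UMIs). They kept the 9 microglial genes at a median of 0.368% of the microglial level, against 0% in RA, with Tmem119 highest (8.79% against 1.02%). At 3000 UMIs, C1qb and Trem2 were found in 100% and 99.1% of RA microglia. The part of leftover microglial RNA in these ratios was not tested. Apoe, which carries lipid, led at 2539.7 CPM in RA and 6805 CPM in OIR without the cells that held microglial genes (log2 ratio 1.42, 1.31 to 1.53). The lysosomal protease gene Ctsd stood at 138 and 466 CPM in those cells, in 22 of 37 and 39 of 50 (log2 ratio 1.75, 1.28 to 2.24). Both were higher beyond counting error. In rods Apoe stood at 109 CPM in RA and 158 CPM in OIR (log2 ratio 0.53, 0.13 to 0.92). Ctsd stood there at 184 and 235 CPM (log2 ratio 0.35, 0.04 to 0.66). C1qb, of the complement component C1q, stood at 111 and 248 CPM, in 5 and 11 cells (log2 ratio 1.16, 0.60 to 1.75), and Trem2, a lipid receptor, at 30.5 and 162 CPM, in 8 and 18 cells (log2 ratio 2.41, 1.46 to 3.50). Both were thus found in a minority of the 50 OIR cells without microglial genes. Over all monocytes, thinned to 3000 UMIs, C1qb was found in 39.2% of RA and 56.0% of OIR cells. Trem2 was found in 35.3% and 57.1%. Without the cells that held microglial genes, the thinned shares were 8.82% and 15.9% for C1qb and 5.88% and 25% for Trem2. Of the RA UMIs of C1qb, 1 cell held 80%, and its ratio was 3.27 (2.21 to 4.55) without the cells with 2 microglial genes. Ctsb, another lysosomal protease gene, lay within 2-fold (log2 ratio 0.22, 0.02 to 0.42).

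**Figure D4:**
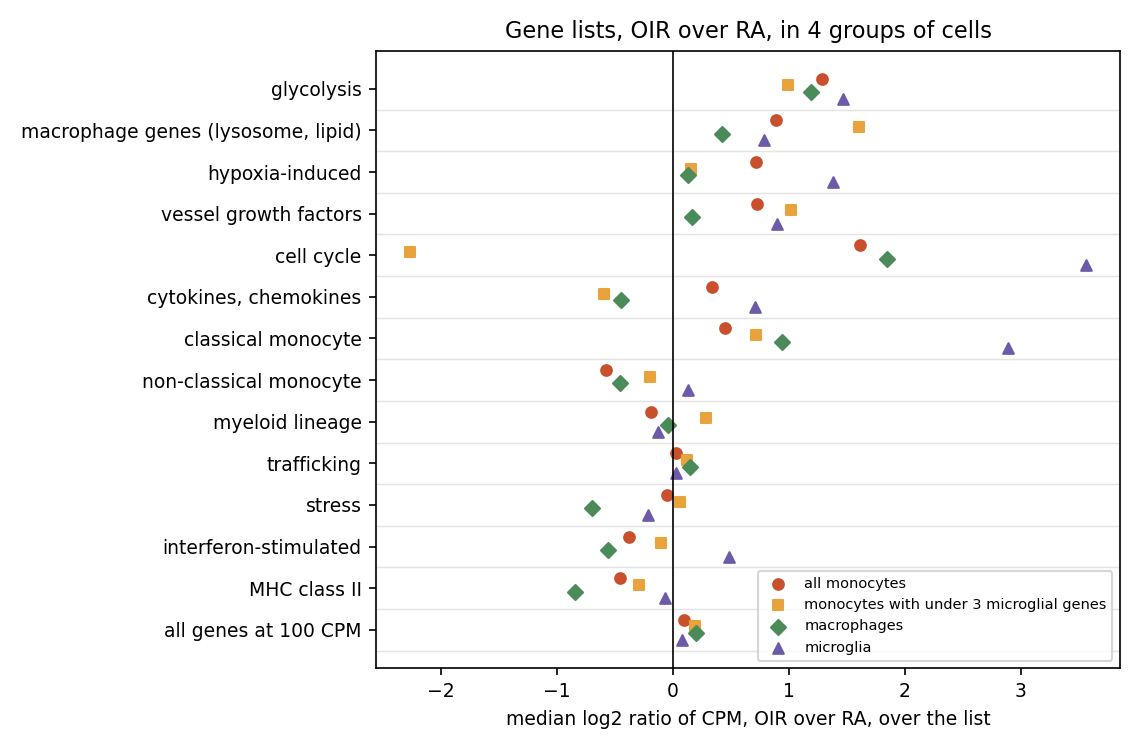
Median OIR over RA log2 ratio of each of 13 gene lists and of all genes with at least 100 CPM, in all monocytes, monocytes without microglial genes, macrophages and microglia. Glycolysis lies above 0 in all 4 (1.28, 0.99, 1.19 and 1.46), and cell cycle genes lie at 1.61 in all monocytes and at -2.27 without the cells that held microglial genes.

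Inflammatory genes ranged widely in level. Il10 had 0 UMIs in both libraries and Il6 5 and 3. Il1b, the gene of interleukin-1 beta, stood at 2472 CPM in RA, found in 50 cells, and at 3867 CPM in OIR, found in 78 cells (log2 ratio 0.65, 0.57 to 0.72). Without the cells that held microglial genes its ratio was 0.45 (0.34 to 0.57). In macrophages its ratio was -0.44 (-0.50 to -0.38). Tnf stood at 628 and 907 CPM over all monocytes but at 58.2 and 79.7 CPM without the cells that held microglial genes, where it was found in 8 and 11 cells. Ccl4, a chemokine of activated myeloid cells, stood at 3133 and 2407 CPM over all monocytes but at 687 and 355 CPM without those cells, where 1 RA cell held 51.2% of the RA UMIs. Ccrl2, a chemokine receptor relative, stood at 420.1 and 802 CPM (log2 ratio 0.93, 0.75 to 1.11), and its ratio was 0.64 (0.31 to 0.98) without those cells. Of the cytokine list 1 gene was over 2-fold higher and 1 lower of 13, beside 9.41% and 7.01% of all genes (median 0.34). The higher one was Ptgs2 (cyclooxygenase 2, 75.2 and 156 CPM), and the lower one Ccl5 (501 and 169 CPM), of which 1 RA cell held 99.5% of the RA UMIs. With the cells that held microglial genes left out, 1 was higher and 4 lower of 13, beside 11.3% and 9.37%, and the median was -0.60, so that the side of the list turned with those cells. Ccl5 then had 2 UMIs in RA and 138 in OIR, in 4 OIR cells, of which 1 held 74.6%. Over all monocytes, interferon-stimulated genes had 0 higher and 4 lower of 12 (median -0.38). Immediate early and heat shock genes had 1 higher and 1 lower of 12 (median -0.05). Of all genes, 9.41% were higher and 7.01% lower.

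Of 15 transcription factors and growth factor receptors of the myeloid lineage 1 was over 2-fold higher and 0 lower (median -0.19), beside 9.41% and 7.01% of all genes. Cebpb, a factor of inflammatory and non-classical monocytes, stood at 2339 CPM in RA and 3593 CPM in OIR (log2 ratio 0.62, 0.54 to 0.70), and Spi1, which encodes PU.1, at 722 and 905 CPM (log2 ratio 0.33, 0.18 to 0.47). The higher gene was Cebpa, at 88.0 and 209 CPM, and 4 RA and 13 OIR cells without microglial genes held it. Of 14 non-classical genes 0 were over 2-fold higher and 3 lower in all monocytes (median -0.58), beside 7.01% of all genes lower, and 2 lower without the cells that held microglial genes (median -0.20), beside 9.37%. The 3 were Gngt2, a G protein subunit (659.7 and 274 CPM), Pglyrp1, which binds peptidoglycan (269.7 and 115 CPM), and Cx3cr1 (1196 and 534 CPM). Cx3cr1 went from 2002 to 732 CPM in microglia, and stood at 174 and 165 CPM in monocytes without microglial genes (log2 ratio -0.08, -0.63 to 0.47), an interval that includes no difference. Nr4a1 stood at 1102 and 635 CPM (log2 ratio -0.79, -0.94 to -0.65). Of 17 trafficking genes 1 was over 2-fold higher and 2 lower, with a median of 0.02, beside 9.41% and 7.01% of all genes.

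Single genes were ranked when they had at least 100 CPM in 1 library and at least 3 UMIs in each. The 10 highest ratios in all monocytes were then those of Lyz2, Ccl22, Rgs1, Ftl1-ps1, Ccr7, Gclm, Hmox1, Cd63, Mki67 and Pgk1. Rgs1, which dampens chemokine receptor signalling, stood at 46.3 CPM in RA, in 13 cells, and at 506 CPM in OIR, in 35 cells (log2 ratio 3.45, 2.98 to 3.95), and its ratio was 4.01 (2.92 to 5.36) without the cells that held microglial genes. Gclm, of glutathione synthesis, stood at 26.6 and 170.2 CPM, and Hmox1, which degrades heme, at 629.6 and 2448 CPM (log2 ratio 1.96, 1.82 to 2.10). Without the cells that held microglial genes the ratios were 0.63 (-0.64 to 1.96) and 2.10 (1.64 to 2.58), and 1 OIR cell held 70.5% of the Hmox1 UMIs that were left. With the cells that held 2 microglial genes left out as well they were -1.07 (-3.20 to 0.72) and -0.55 (-1.29 to 0.17), intervals that include no difference. Cd63, a lysosomal tetraspanin, stood at 161 and 611 CPM in all monocytes, and at 5.54 and 15.3 CPM without the cells that held 3 microglial genes. Ccl22 and Ccr7, a chemokine and a chemokine receptor of migrating dendritic cells, rested on 1 cell each, which held 91.5% and 88.3% of their OIR UMIs. Ftl1-ps1 is a pseudogene of the ferritin light chain whose reads may be those of its parent gene, so its level is uncertain. Without the cells that held microglial genes, Basp1, Ms4a4b, Ass1, Il4i1 and Dok2 also entered the 10 highest, and 1 OIR cell held 94.9% of the Il4i1 UMIs and 1 held 89.5% of those of Ms4a4b.

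With the same limits, the 10 lowest ratios were those of S100a8, Stfa1, S100a9, Rpl41, Tmsb10, Rps28, Romo1, Rps27, Snrpg and Rpl38. S100a8 and S100a9, the subunits of calprotectin in neutrophils and classical monocytes, stood at 1542 and 1079 CPM in RA and at 86.6 and 137 CPM in OIR. S100a8 was found in 10 RA and 8 OIR cells, and 1 RA cell held 61.3% of its RA UMIs. Its log2 ratio was -4.15 over all monocytes but 0.22 without the cells that held 3 genes of another blood cell list, and 0.23 with the cells that held microglial genes left out too. S100a9 was found in 6 and 1 cell, and Stfa1, a cystatin of a family of close copies whose counts are uncertain, in 4 and 1. These 3 thus rested on few cells, and 5 RA and 2 OIR cells held 3 neutrophil genes. Rpl41, a protein of the large ribosomal subunit, stood at 3103 and 412 CPM, in 54 and 83 cells (log2 ratio -2.91, -3.06 to -2.76), and Tmsb10, which binds actin monomers, at 1901 and 259 CPM (log2 ratio -2.88, -3.07 to -2.69).

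Short transcripts were lower in OIR as a class. Of the 1918 genes compared, 1887 had a transcript length in an older mouse annotation used for length alone. The 68 genes under 600 nt had a median log2 ratio of -1.71, the 176 of 600 to 1000 nt one of -0.27, the 505 of 1000 to 2000 nt one of 0.42, the 664 of 2000 to 4000 nt one of 0.17, and the 474 longer ones one of -0.15. Of the 172 genes over 2-fold lower in OIR, 104 were under 1000 nt. Of 81 ribosomal protein genes, 49 were over 2-fold lower (median -1.23). The same was seen in cells of other kinds: genes under 600 nt had medians of -1.36 in macrophages, -1.42 in microglia and -1.82 in rods, and -1.75 in monocytes without microglial genes. What set the libraries apart in short transcripts was not tested, and the gap cannot be told apart from the condition. S100a4 (498 nt) and S100a9 (519 nt) are of that class.

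**Figure D5:**
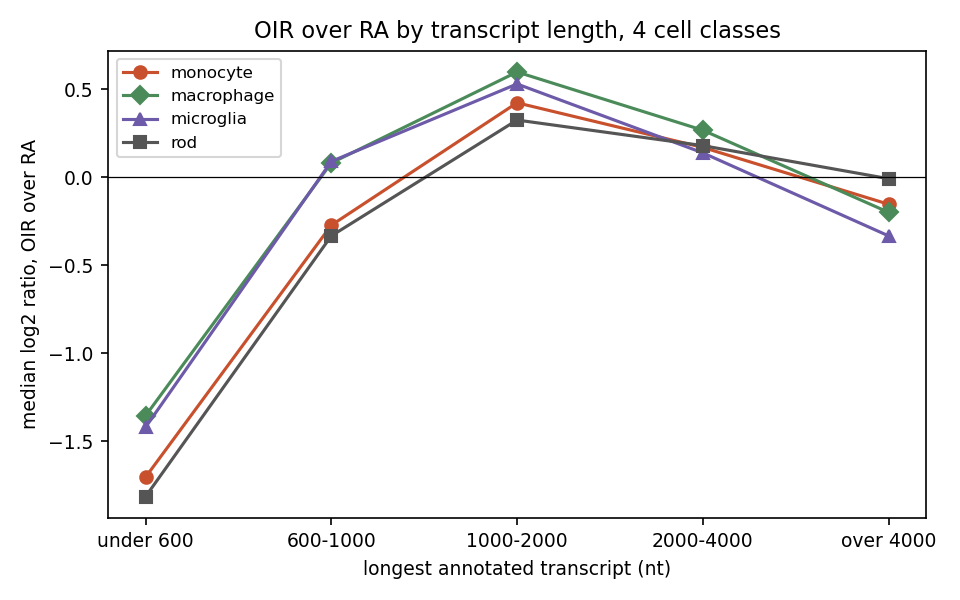
Median OIR over RA log2 ratio by transcript length (nt, 5 bins) in monocytes, macrophages, microglia and rods. All 4 lines are lowest under 600 nt (monocytes -1.71) and the monocyte line is highest between 1000 and 2000 nt (0.42).

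UMIs of cell cycle genes lay in few cells. At least 20 UMIs of 10 cell cycle genes were found in 2 RA and 7 OIR monocytes, which held 72.7% and 82.5% of the UMIs of these genes. Of these cells 1 in RA and 7 in OIR held microglial genes. In all monocytes 8 of 10 cell cycle genes were over 2-fold higher in OIR (median 1.61), beside 9.41% of all genes. Once the cells with microglial genes were left out, 6 of 7 were over 2-fold lower (median -2.27), beside 9.37%. Mki67, the proliferation antigen Ki-67, stood at 45.1 and 163 CPM in all monocytes and at 105 and 42.9 CPM without those cells. In that subset 1 RA cell held 94.7% of the RA UMIs of Mki67 and 1 held 97.1% of those of Top2a, a topoisomerase of dividing cells, and 1 OIR cell held 92.9% of the OIR UMIs of Mki67. The median without microglial genes thus rests largely on 1 RA cell. All 7 such OIR cells thus carried microglial transcripts, and the direction of the list turned with them.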

How the data were processed

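Retinal CD11b+F4/80+ cells of 1 RA and 1 OIR library were captured with 10x 3′ V3 chemistry (about 2000 cells and 80000 reads per cell aimed at). The deposited matrices hold raw UMI counts of 31053 genes, made by the authors on mm10; the matrix header gives Cell Ranger 3.1.0, and the submitters' processing notes also name Seurat 4.0.

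Cells were chosen by the rule in python 3.11.15 (numpy 2.4.6, pandas 2.3.3, scipy 1.17.1; figures with matplotlib 3.10.9). Counts were summed over cells of a library and given as CPM with exact Poisson intervals. Shares have exact Clopper-Pearson intervals and ratios exact conditional binomial ones, all at 95% and for counting error only. The intervals of CPM and ratios leave out the spread between cells. Since each condition is 1 library, no count model was fitted. Single genes were compared at 100 CPM in 1 group and 3 UMIs in both, and gene lists (26 lists, 257 genes; some genes of these lists are not reported here and were left out of them) over members with 10 UMIs in both groups together. A gene at 0 in 1 group was set at a floor of 3 UMIs. Genes were named as the members of the choosing rules, the list members highest or most changed, and the 10 highest and lowest ratios of a comparison; other list members, Lyz1 and the genes of the sort were chosen after their values were seen. The members and lists were chosen with earlier results of these data known. The scripts were tested on simulated data. No doublet caller was run, and cells that held microglial or other blood genes were left out as alternatives. Other alternatives were stricter cell rules, thinning to 3000 UMIs, means over cells, other scalings and other gene limits. Promoters are from RefSeq (GRCm38.p6) and transcript lengths, for 20504 genes, from GENCODE vM1.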

Additional observations from a re-analysis of the deposited data

Results flagged for a closer look

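Hmox1 and Rgs1 lay on opposite sides of 0 in monocytes and macrophages, and that contrast drew attention to them. For Hmox1 the OIR over RA log2 ratio was 1.96 (1.82 to 2.10) in monocytes and -0.36 (-0.46 to -0.26) in macrophages, whose levels were 1085 CPM in RA and 846 CPM in OIR. In microglia it was 0.995 (0.96 to 1.03), and in monocytes without microglial genes 2.10 (1.64 to 2.58), or -0.55 (-1.29 to 0.17) with the cells that held 2 of these genes left out too. For Rgs1 the ratio was 3.45 (2.98 to 3.95) in monocytes and -0.89 (-1.01 to -0.76) in macrophages, at 808 and 437 CPM. In microglia it was 0.92 (0.83 to 1.01), and in monocytes without microglial genes 4.01 (2.92 to 5.36), from 2 RA and 9 OIR cells. With 1 library per condition the difference between the cell types was not tested.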

How the results depend on the processing

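No paired analysis was possible because each condition has 1 library, and for the same reason no replicate could be left out. Of the alternatives for shares and counts of genes, 85 values stayed within their counting interval or within 1.5 times the main count and 50 moved; of those for single genes and list medians 731 stayed, 218 moved and 12 reversed. The monocyte share of kept cells was 2.04% in RA and 3.82% in OIR without cells of other blood or microglial lists, and 9.36% in OIR among cells with at least 2000 UMIs. The classical share was 29.6% in RA and 26.7% in OIR by Ly6c2 alone, and 37.0% and 51.1% with 2 UMIs of Ccr2 and Ly6c2. After thinning before the rule it was 41.7% in RA and 50% in OIR. Genes over 2-fold higher in OIR (main 88) numbered 185 after thinning, 149 without cells of other types and 531 with a limit of 20 UMIs and no CPM limit, where 447 were lower (main 172). Genes higher in classical cells in both libraries (main 8) numbered 13 with at least 4 of the 8 genes, 17 without the 2% of cells with the most genes, 24 after thinning, 13 as means over cells, 16 without the top cell of each gene, 28 at 20 UMIs, 20 by Ly6c2 alone and 13 with 2 UMIs. Those lower (main 3) numbered 6, 9, 27, 13, 11, 33 and 1 in the same settings other than the top cell, 0 with no limit on macrophage genes, 36 without cells of other types and 1 by Ccr2 alone. Genes higher in monocytes than in macrophages and microglia (main 144) numbered 225 after thinning, 307 without cells of other types, 222 as means over cells and 365 at 20 UMIs. The RA median of MHC class II genes in classical over other cells reversed to -2.29 and S100a8 to 0.23 without cells of other types, and Ccr7 to -1.51 with at least 4 of the 8 genes.

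Further alternatives were chosen after seeing the data. Without the cells that held microglial genes (3 of 9) the monocyte share was 2.79% in RA and 4.15% in OIR, 16 genes were higher and 24 lower in classical cells in both libraries, 262 were higher in monocytes than in the other 2 types, and the OIR over RA median of cell cycle genes (-2.27) and Mki67 (-1.29) reversed. With a limit of 2 of 9 these values were 2.72%, 3.90%, 19, 18, 284, -2.16 and -1.19, 134 genes were higher in OIR, and Gclm (-1.07) and Hmox1 (-0.55) reversed. Over cells with a Ptprc UMI the shares were 6.04% and 13.7%. Genes higher in OIR numbered 58 once ratios were centred on genes of like length, and 183 in the other monocytes alone. Without cells of other blood types 5 genes were lower in classical cells, and S100a8 reversed to 0.22. In classical monocytes alone Ccr7 (-0.43) and Stfa1 (2.03) reversed. The cause of these changes was not tested. Few cells and UMIs limit the subsets most: a gene at 0 could stand at up to 8.31 CPM in RA and 9.19 CPM in OIR monocytes without microglial genes.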
